A study of Mus musculus with 16 samples.

Results

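Mitosis is driven by the kinase Cdk1 with its cyclins A and B, and its gene products are made mostly in G2 and degraded as cells divide. The spindle checkpoint holds the anaphase-promoting complex back until every kinetochore is attached to microtubules, and the complex then marks securin and cyclin B for destruction. Many of these genes are transcribed together under Foxm1 and the B-Myb-MuvB complex, and the DREAM complex, which acts downstream of p53 and its target Cdkn1a, represses them; proliferating melanoma cells express them at high levels.

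The 41 mitosis and spindle checkpoint genes described here were chosen by name, kinesins left out, and span mitotic kinases, cyclins and Cdk1 activators, the spindle checkpoint, anaphase-promoting complex partners, kinetochore and chromosomal passenger proteins, spindle proteins, cytokinesis and proliferation markers. Probes carrying the name of 40 of them were on the array, 64 probes in all, and Prc1 was not analysed here. All 40 passed the filter on dim probes, beside 15399 genes tested in the whole series. Where a gene had several probes, the brightest on average was read for it.

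Expression was measured by 1-colour arrays in 16 B16-BL6 tumours, a transplantable mouse melanoma grown in male C57BL/6J mice 8 weeks old. The 4 groups of 4 tumours had 5-aminolevulinic acid (ALA, a heme precursor from which cells make the photosensitiser protoporphyrin IX) at 50 mg per kg given locally before fractionated X-ray irradiation (ALA plus X-ray), fractionated X-ray alone (X-ray), ALA at 50 mg per kg alone (ALA), or neither (control). The labels describe each sample as a tumour preparation from a mouse and do not say whether each came from a different animal, so the p-values measure the spread between these preparations. The X-ray dose, the number of fractions and the time of sampling are not given in the sources used here.

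All 7 melanocyte genes checked, among them the pigment enzymes Tyrp1 and Dct, were well above background on all 16 arrays, and their mean level was 5.68 in ALA plus X-ray, 5.81 in X-ray, 5.73 in ALA and 5.76 in control. Levels are log2 of the processed signal after subtraction of the array's 75th percentile, so a gene at that percentile has a level of 0. The 75th percentile of the processed signal ran over 366.4 to 521.3 intensity units in ALA plus X-ray, 224.1 to 478.1 in X-ray, 216.8 to 331.3 in ALA and 212.9 to 407.8 in control arrays, and 0 spots were saturated. Each of 4 slides held 1 array of each group and each group kept to 1 position on the slides, which cannot be told apart from the group itself. Differences are log2 fold changes from limma with Benjamini-Hochberg adjustment over all 15399 genes of a comparison, and genes are said to have risen or fallen where the adjusted p was under 0.05. By this rule 1 of the 7 melanocyte genes fell and 1 rose in ALA plus X-ray against control, with changes from -0.83 to 0.51. In whole-tumour RNA, fewer dividing cells and less of these RNAs per cell cannot be told apart.

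Many promoters of these genes hold short motifs known from G2/M genes: the cell cycle genes homology region, a site of B-Myb-MuvB and DREAM, and the CCAAT box, a site of NF-Y. They are shown first because they are a feature that the choice of the genes did not use. RefSeq windows of 250 bases before to 50 after the gene start (GRCm38.p6) were matched by symbol for 34 of the 40 genes, 35 windows in all. The motif TTTGAA, the core of the cell cycle genes homology region, was present on either strand in 22 of the 35 windows (62.9%), against 17.9% of all 32851 windows. The CCAAT box was in 25 windows (71.4%), against 37.4% of all windows, and GGGCGC or GGGCGG in 30 windows (85.7%), against 41.1%. Windows that held both TTTGAA and CCAAT made up 57.1% of the mitosis gene windows and 7.0% of all windows (a CCAAT match can share its end base with a TTTGAA match). Nuf2, Plk4 and Pttg1 held none of the 3 motifs. These shares describe letters in a window and say nothing of which factor was bound in these tumours.

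The 120 bases that end at the start site are printed for 5 genes that fell in ALA plus X-ray tumours against control (Cdk1, Cdc20, Ube2c, Top2a, Espl1) and for 2 that did not pass the test (Plk4, Pttg1), with TTTGAA or its reverse complement TTCAAA and CCAAT or ATTGG in capitals. Plk4 did not pass on the probe read, but its second probe was lower (-0.95, adjusted p 0.0279 in the limma fit of all probes). Each stretch is written 5′ to 3′ on the gene's strand.
Cdk1 (chr10:69352913-69353032, minus strand): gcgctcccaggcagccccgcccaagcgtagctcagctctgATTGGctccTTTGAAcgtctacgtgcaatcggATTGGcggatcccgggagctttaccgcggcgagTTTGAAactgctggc
Cdc20 (chr4:118437344-118437463, minus strand): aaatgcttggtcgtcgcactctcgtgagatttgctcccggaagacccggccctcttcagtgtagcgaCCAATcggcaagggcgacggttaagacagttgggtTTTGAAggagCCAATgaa
Ube2c (chr2:164769809-164769928, plus strand): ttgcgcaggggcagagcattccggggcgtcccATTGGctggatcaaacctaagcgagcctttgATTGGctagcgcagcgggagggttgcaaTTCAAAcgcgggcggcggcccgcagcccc
Top2a (chr11:99024190-99024309, minus strand): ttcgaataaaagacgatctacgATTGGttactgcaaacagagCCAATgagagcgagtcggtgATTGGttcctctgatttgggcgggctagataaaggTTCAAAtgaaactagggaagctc
Espl1 (chr15:102296173-102296292, plus strand): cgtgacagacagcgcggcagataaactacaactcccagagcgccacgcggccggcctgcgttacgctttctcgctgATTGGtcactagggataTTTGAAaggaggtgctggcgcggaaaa
Plk4 (chr3:40799831-40799950, plus strand): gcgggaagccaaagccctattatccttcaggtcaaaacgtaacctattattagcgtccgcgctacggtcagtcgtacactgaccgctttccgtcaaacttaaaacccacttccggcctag
Pttg1 (chr11:43425982-43426101, minus strand): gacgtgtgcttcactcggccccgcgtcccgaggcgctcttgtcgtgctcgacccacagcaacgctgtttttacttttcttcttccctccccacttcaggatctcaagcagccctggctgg
The 5 genes that fell carry both motifs in this stretch, and neither motif is in the stretches of Plk4 and Pttg1. These 7 were picked after their values were seen, and over all 34 genes the motif did not sort them this way: TTTGAA was in the window of 17 genes that fell and of 4 that did not pass, and was not found in 11 that fell and 2 that did not pass.

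In ALA plus X-ray tumours against control, 34 of the 40 mitosis genes fell and 0 rose, where 24.9% of all genes tested changed and 15.1% fell (limma, Benjamini-Hochberg). Their median log2 fold change was -0.87, against -0.08 over all genes, and all 40 were below 0, against 56.5% of all genes. The falls reached from the mitotic kinases to the cyclins, the checkpoint and the kinetochore. The array values of 21 genes did not overlap between the groups and were lower in ALA plus X-ray, against 11.6% of all genes.

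Of the 6 mitotic kinase genes, 5 fell. Cdk1, the kinase that starts mitosis, had levels of 3.18, 2.09, 1.60 and 2.36 on the 4 ALA plus X-ray arrays, against 3.60, 3.59, 3.34 and 3.72 on the control arrays. Every ALA plus X-ray array lay below every control array, and the fold change was -1.25 (SE 0.24, adjusted p 0.00552 in limma), a 2.39-fold lower signal. The probe that stands for Cdk1 crosses a splice junction: its 60 bases span chr10:68805423-68807832 of mm9, minus strand, which is 2410 bases of genome.
Cdk1 probe: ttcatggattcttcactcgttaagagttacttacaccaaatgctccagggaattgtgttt
Aurka, the kinase of centrosomes and spindle poles, had 5.13, 4.25, 4.22 and 4.54 in ALA plus X-ray and 5.18, 5.36, 5.03 and 5.28 in control. Plk1, which acts in mitotic entry, spindle assembly and cytokinesis, had 4.60, 3.64, 2.88 and 3.74 in ALA plus X-ray and 4.56, 4.72, 4.54 and 4.60 in control. For both genes 1 ALA plus X-ray array, replicate 1, reached into the control range while the other 3 lay below it, and the changes were -0.68 (SE 0.18, adjusted p 0.0188) for Aurka and -0.89 (SE 0.28, adjusted p 0.0339) for Plk1 in limma. Nek2, a kinase of centrosome separation, and Melk fell by 0.71 and 0.93 on the log2 scale. Plk4, the kinase that starts centriole duplication, did not pass, at -0.32 (SE 0.18, adjusted p 0.189), but a second Plk4 probe gave -0.95 (SE 0.28, adjusted p 0.0279 in the limma fit of all probes).

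**Figure D1:**
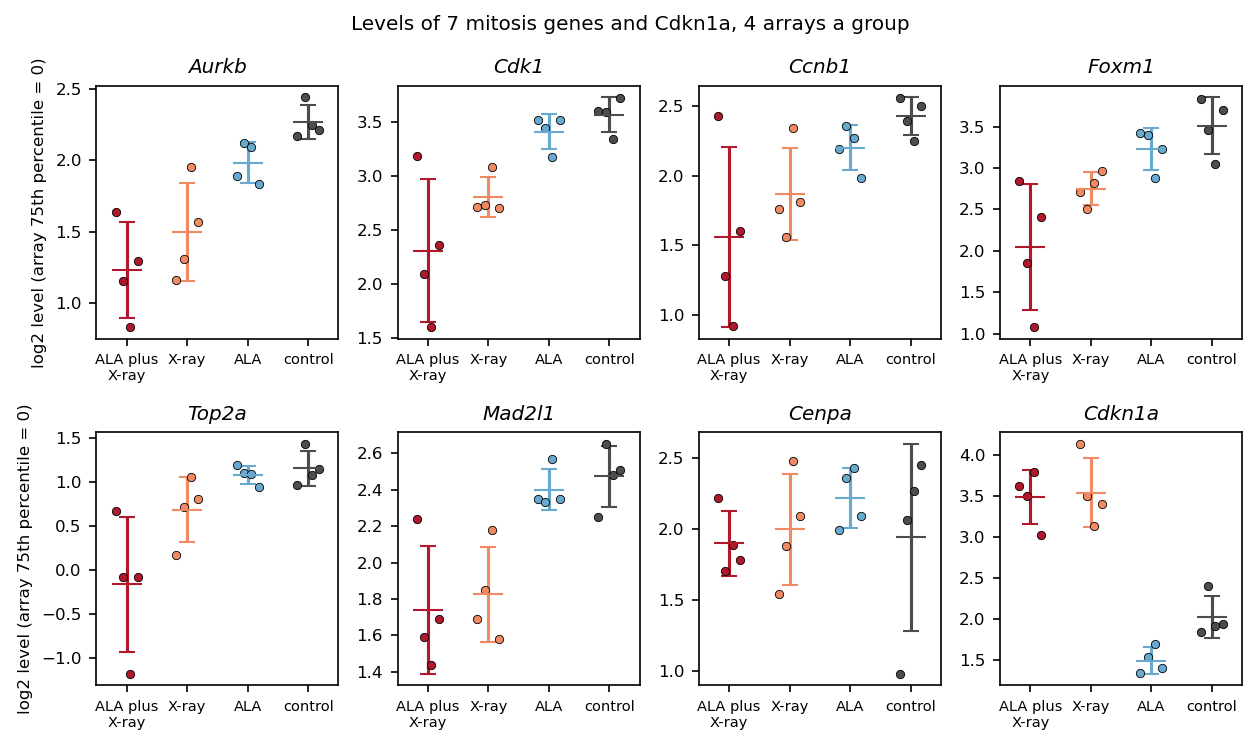
Levels of 7 mitosis genes and of Cdkn1a. The y axes give the log2 level (0 is the array's 75th percentile, scale set per gene), points are single arrays in replicate order, and bars the mean ± SD of 4 arrays. Aurkb, Cdk1, Foxm1, Top2a and Mad2l1 have no overlap between ALA plus X-ray and control, Ccnb1 overlaps through replicate 1, Cenpa overlaps throughout, and Cdkn1a is high in both irradiated groups.

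All 7 cyclin and Cdk1 activator genes fell, with changes from -1.46 (Foxm1) to -0.79 (Ccnb2). Foxm1, a transcription factor of G2/M genes, had 2.85, 1.85, 1.08 and 2.41 in ALA plus X-ray, against 3.83, 3.46, 3.05 and 3.70 in control. The groups did not overlap, and the 2.76-fold lower signal had an adjusted p of 0.00647 in limma (log2 fold change -1.46, SE 0.30). Ccna2, cyclin A2, had 4.13, 3.11, 2.56 and 3.77 in ALA plus X-ray and 4.48, 4.58, 4.34 and 4.60 in control, again with no overlap (-1.11, SE 0.27, limma adjusted p 0.0128). The B cyclins, which partner Cdk1 at mitotic entry, overlapped through replicate 1 of ALA plus X-ray. Ccnb1 had 2.43, 1.28, 0.92 and 1.60 in ALA plus X-ray and 2.56, 2.39, 2.25 and 2.50 in control, a change of -0.87 (SE 0.26, limma adjusted p 0.026). Ccnb2 had 5.18, 4.10, 3.78 and 4.35 in ALA plus X-ray and 5.10, 5.22, 5.03 and 5.22 in control, a change of -0.79 (SE 0.23, limma adjusted p 0.0236). Cdc25b and Cdc25c, phosphatases that activate Cdk1, fell by 1.12 and 1.33, and Ccnf, the cyclin F subunit of a ubiquitin ligase, by 1.20. Ccnf overlapped with control (SE 0.41, limma adjusted p 0.0459), was lowest on replicate 3 of ALA plus X-ray at -2.46, and lost its call in 23 of 31 alternative settings.

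All 4 spindle checkpoint genes fell on the probes read for them, but Bub1 did not on its second probe. Mad2l1, whose protein binds and holds back Cdc20, had 2.24, 1.59, 1.44 and 1.69 in ALA plus X-ray, against 2.25, 2.65, 2.48 and 2.51 in control, and the closest arrays of the groups were 2.24 and 2.25. The change was -0.73 (SE 0.17, limma adjusted p 0.011). Bub1, a kinase of the checkpoint and of centromeres, had 1.97, 1.44, 1.43 and 2.13 in ALA plus X-ray and 2.17, 2.48, 2.48 and 2.53 in control, with no overlap (-0.68, SE 0.18, limma adjusted p 0.0173). Its second probe, well above background on all 16 arrays, gave -0.25 (SE 0.18, adjusted p 0.311 in the limma fit of all probes), so the call for Bub1 turns on the probe. Bub1b, the BubR1 subunit of the mitotic checkpoint complex, had 1.56, 0.49, -0.16 and 0.71 in ALA plus X-ray and 1.48, 1.45, 1.36 and 1.51 in control, with replicate 1 above all control arrays (-0.80, SE 0.27, limma adjusted p 0.0434). Ttk, the Mps1 kinase that starts checkpoint signalling, was dim: it was well above background on 3 of 4 ALA plus X-ray and 2 of 4 X-ray arrays and on all ALA and control arrays. Its levels were -3.54, -3.90, -4.49 and -3.91 in ALA plus X-ray and -2.80, -2.91, -3.48 and -2.99 in control, with no overlap and a change of -0.92 (SE 0.25, limma adjusted p 0.019).

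Of the 4 genes of the anaphase-promoting complex and of sister separation, 3 fell. Cdc20, which activates the complex at anaphase, had 5.56, 4.63, 4.53 and 4.75 in ALA plus X-ray and 6.10, 5.94, 5.47 and 5.93 in control. Replicate 1 of ALA plus X-ray lay just above the lowest control array, and the change was -0.99 (SE 0.20, limma adjusted p 0.00679). Ube2c, the ubiquitin-conjugating enzyme of the complex, fell by 1.16. Espl1, the separase that cuts cohesin, had the largest fitted change of the 40 genes at -1.66 (SE 0.43, limma adjusted p 0.0158), with 0.39, -0.25, -2.52 and -0.56 in ALA plus X-ray and 1.04, 0.95, 0.60 and 1.12 in control. The groups did not overlap, and replicate 3 of ALA plus X-ray was far below the other 3. Pttg1, the securin that holds separase inactive, had overlapping levels of 4.67, 4.41, 4.82 and 4.06 in ALA plus X-ray and 4.87, 4.82, 4.51 and 4.36 in control (-0.15, SE 0.17, limma adjusted p 0.557).

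Of the 9 centromere, kinetochore and chromosomal passenger genes, 8 fell. Aurkb, the kinase of the chromosomal passenger complex, which corrects faulty kinetochore attachments, had 1.64, 1.15, 0.83 and 1.29 in ALA plus X-ray, against 2.17, 2.44, 2.25 and 2.21 in control. The groups were well apart, and the 2.06-fold lower signal had the smallest p of the 40 genes (-1.04, SE 0.18, limma adjusted p 0.00354). Its partner Birc5 (survivin) had 6.05, 5.31, 5.16 and 5.62 in ALA plus X-ray and 6.33, 6.50, 6.21 and 6.23 in control, with no overlap (-0.78, SE 0.18, limma adjusted p 0.00969), and the scaffold Incenp fell by 0.66. Ndc80, which couples kinetochores to microtubules, had -0.55, -1.08, -1.75 and -1.36 in ALA plus X-ray and -0.88, 0.17, -0.05 and -0.47 in control, with overlap (-0.88, SE 0.29, limma adjusted p 0.0402). Its complex partners Nuf2 and Spc25 fell by 0.91 and 0.65 without overlap, and the kinetochore genes Cenpe and Cenpf by 0.57 and 0.87. Cenpa, the histone H3 variant of centromeres, had 2.22, 1.70, 1.89 and 1.78 in ALA plus X-ray and 0.98, 2.06, 2.27 and 2.45 in control. These overlapped, 1 control array being the lowest of all 16, and the change was -0.04 (SE 0.28, limma adjusted p 0.93).

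Among the spindle and cytokinesis genes, Tpx2, Nusap1 and Tacc3, which build or stabilise spindle microtubules, fell by 1.09, 0.74 and 0.89, and the cytokinesis regulators Ect2 and Racgap1 by 0.74 and 0.76. Hmmr (-0.47, limma adjusted p 0.127) and Ckap2 (-0.42, limma adjusted p 0.11) did not pass. Anln, the anillin scaffold of the cleavage furrow, had -1.21, -1.27, -1.07 and -1.10 in ALA plus X-ray and -1.37, -0.71, -0.66 and -0.93 in control (-0.25, SE 0.28, limma adjusted p 0.543). Its 2 probes disagreed: the dimmer one, well above background on 13 arrays, gave -3.23, -3.55, -4.33 and -3.96 in ALA plus X-ray and -2.71, -2.84, -2.75 and -2.38 in control, with no overlap and a change of -1.10 (SE 0.27, limma adjusted p 0.0135 in the fit of all probes). The dimmer probe lies nearer the gene's 5′ end on the minus strand of chromosome 9 (mm9), at chr9:22177635-22177694, and the brighter one crosses a splice junction within chr9:22138566-22142382. Both are printed because the call for Anln turns on which is read.
Anln probe, brighter: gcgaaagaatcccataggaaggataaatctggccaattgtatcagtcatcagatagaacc
Anln probe, dimmer: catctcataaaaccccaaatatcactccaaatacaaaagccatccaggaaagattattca
Second probes also missed the threshold for Cenpf (-0.94, adjusted p 0.0834) and Ect2 (-0.72, adjusted p 0.172) in that fit, on probes well above background on 9 and 14 arrays. Both proliferation markers fell, Mki67 less stably than Top2a. Mki67, the Ki-67 antigen that coats mitotic chromosomes, had 5.01, 3.74, 3.02 and 4.54 in ALA plus X-ray and 4.95, 5.27, 4.95 and 5.02 in control, with replicate 1 inside the control range (-0.97, SE 0.33, limma adjusted p 0.0448). This call was lost in 23 of 31 alternative settings, while a second Mki67 probe, well above background on all 16 arrays, gave -1.38. Top2a, the topoisomerase that untangles sister chromatids, had 0.67, -0.08, -1.18 and -0.08 in ALA plus X-ray and 0.96, 1.43, 1.08 and 1.15 in control, with no overlap and a 2.50-fold lower signal (-1.32, SE 0.29, limma adjusted p 0.00876), a call lost in 2 of 31 settings.

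**Figure D2:**
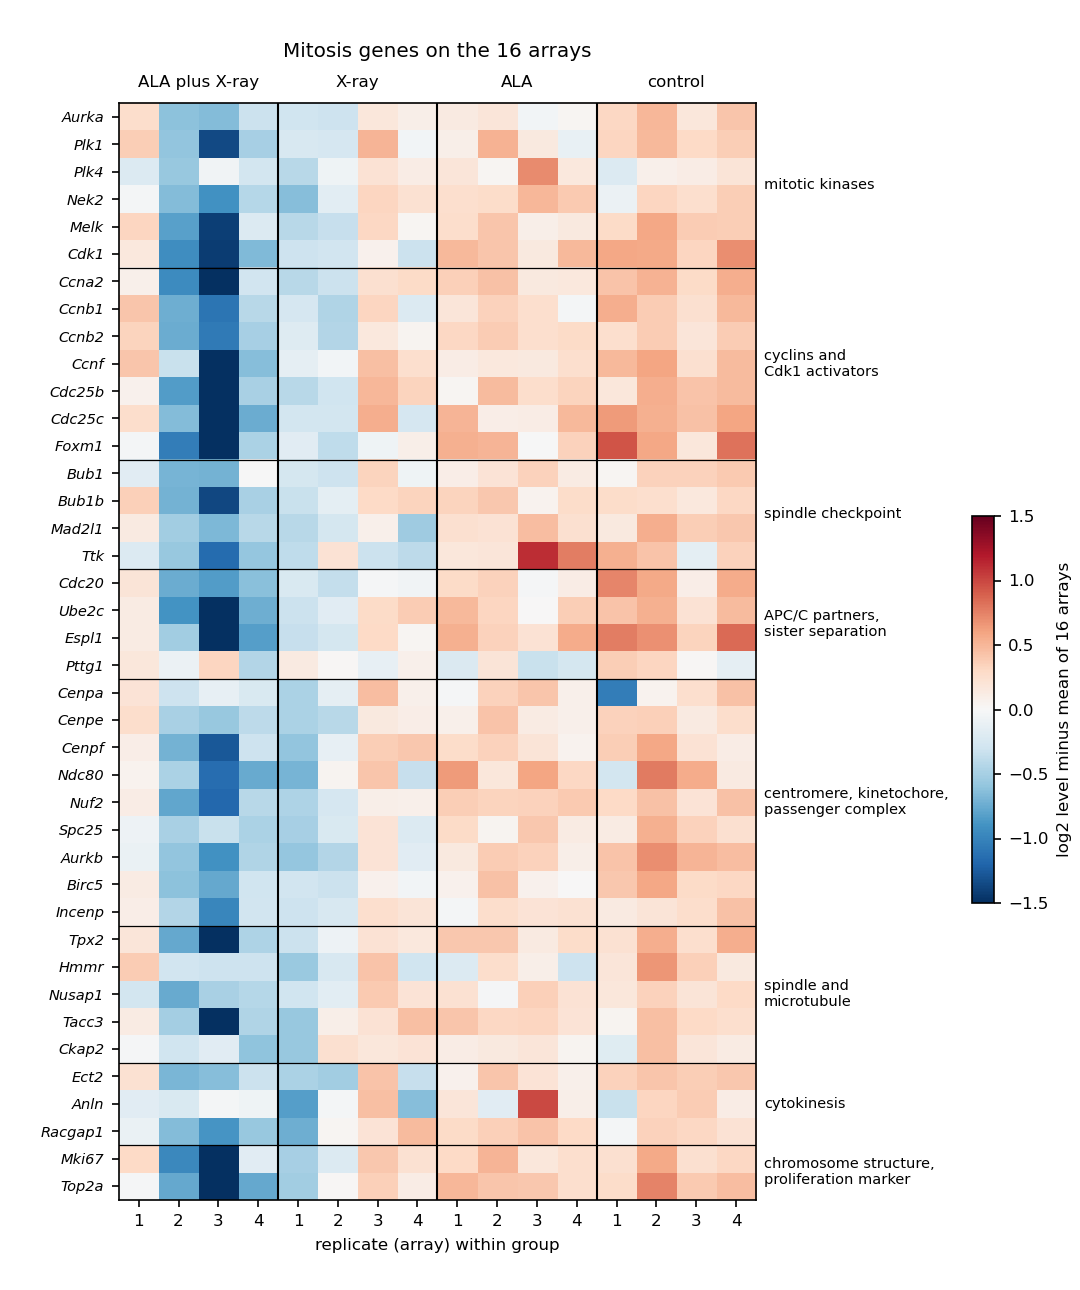
Levels of the 40 mitosis genes on the 16 arrays. Colour gives the log2 level minus the gene's mean over 16 arrays, with shades ending at 1.5 on either side, rows are grouped by role and columns by treatment. Replicate 3 of ALA plus X-ray is the darkest blue column, and replicate 1 of that group is close to the ALA and control columns for most genes.

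The 4 ALA plus X-ray tumours were unlike each other in these genes. The median level of the 40 genes was 2.38, 1.61, 1.20 and 1.79 on the ALA plus X-ray arrays, 1.76, 1.87, 2.48 and 2.08 on the X-ray arrays, 2.29, 2.36, 2.51 and 2.30 on the ALA arrays and 2.40, 2.65, 2.46 and 2.52 on the control arrays. Replicate 3 of ALA plus X-ray was the lowest of the 16 arrays for 31 of the 40 genes. The median standard deviation of a mitosis gene among the 4 arrays of a group was 0.487 in ALA plus X-ray, 0.332 in X-ray, 0.158 in ALA and 0.163 in control, beside 0.334, 0.245, 0.215 and 0.194 over all genes tested. The genes moved together from array to array: over 780 gene pairs the median correlation of deviations from the group means was 0.68, among probes that share the same 16 RNAs and scaling. Within slides the median difference from control was -0.10 on slide 1 and -1.10, -1.29 and -0.79 on slides 2, 3 and 4. Without control replicate 2 or 4 the count of genes that fell against control was 16 or 20, and without ALA plus X-ray replicate 2 or 3 it was 17 or 16, in place of 34. How many of all genes fell in these refits is not given here, so the counts have no background beside them.

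Markers of other cells differed between the same groups. All 15 macrophage and monocyte genes were above 0 in ALA plus X-ray against control and 6 rose in limma; their mean level ran over 1.19 to 3.23 in ALA plus X-ray and 0.21 to 1.43 in control arrays. All 10 fibroblast genes were also above 0, with 0 past the test and 4 at an unadjusted limma p under 0.05, and ran over 0.26 to 3.44 in ALA plus X-ray and -0.34 to 1.32 in control arrays. The 15 skeletal muscle genes ran over -4.01 to 4.77 in ALA plus X-ray and -3.99 to 3.30 in control arrays. Replicate 3 of ALA plus X-ray, the array lowest in mitosis genes, had the highest value. Control replicate 3, next at 3.30, had a mitosis gene median of 2.46. T and NK cell genes, 7 of 13 past the filter, ran over -3.32 to -0.76 in ALA plus X-ray and -4.59 to -3.16 in control arrays, and 2 rose in limma. Replicate 1, the array highest in mitosis genes among the 4, had the lowest macrophage (1.19), fibroblast (0.26) and muscle (-4.01) levels of its group. Replicate 4 had the highest macrophage (3.23) and fibroblast (3.44) levels of the 16 arrays. Its mitosis gene median of 1.79 was above those of replicates 2 and 3 (1.61 and 1.20). With the macrophage level as a covariate the median change of the mitosis genes against control was -0.58 and 0 genes passed in limma, with the fibroblast level the median was -0.61 and 1 passed, and with the skeletal muscle level it was -0.76 and 28 passed. Where a marker level differs between the groups, such a fit, here and below, cannot tell it from the treatment. The share of all genes that passed in the covariate fits is not given here, so these counts have no background beside them. All 4 erythroid genes were below 0 in ALA plus X-ray against control (median -1.02), with 0 past the test. The part of the T and NK cells and of the erythroid cells in the result was not tested.

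**Figure D3:**
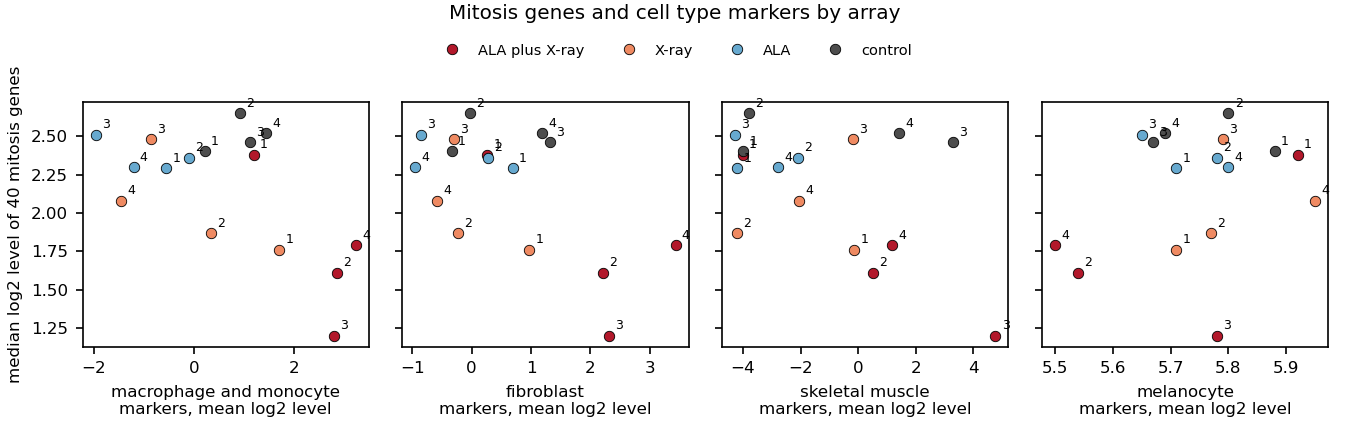
Median log2 level of the 40 mitosis genes (y axis) against the mean log2 level of 4 marker lists (x axes) on each array, numbered by replicate. The 3 highest macrophage and fibroblast levels are those of ALA plus X-ray replicates 2, 3 and 4, whose mitosis gene medians of 1.61, 1.20 and 1.79 lie beside X-ray replicate 1 (1.76) below all other arrays. The mean melanocyte level spans 5.50 to 5.95 over all arrays, although single melanocyte genes moved in both directions.

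In X-ray tumours against control, 1 of the 40 mitosis genes fell and 0 rose (limma, Benjamini-Hochberg), where 3.37% of all genes changed and 1.38% fell. Most of the others also had lower means: 39 were below 0, against 52.7% of all genes, with a median of -0.42, against -0.02 over all genes. At an unadjusted limma p under 0.05, 13 were lower, against 11.6% of all genes, and 11 of the 40 had lower values without overlap, against 10.5% of all genes. The comparison shares its control arrays with the one above.

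Aurkb was the gene that fell, with 1.16, 1.31, 1.95 and 1.57 on the X-ray arrays against 2.17, 2.44, 2.25 and 2.21 on the control arrays. The groups did not overlap, and the signal was 1.71-fold lower (-0.77, SE 0.18, limma adjusted p 0.0365). Mad2l1 had 1.69, 1.85, 2.18 and 1.58 in X-ray and 2.25, 2.65, 2.48 and 2.51 in control, also with no overlap, but did not pass (-0.65, SE 0.17, limma adjusted p 0.053). Its second probe passed in the limma fit of all probes (-0.72, SE 0.18, adjusted p 0.0472), and that of Bub1 was at 0.22 (adjusted p 0.505), opposite in sign to the -0.36 of the probe read. Spc25 was next at -0.49 (SE 0.15, limma adjusted p 0.0856). Cdk1 (2.71, 2.73, 3.08 and 2.70 in X-ray), Foxm1 (2.71, 2.50, 2.82 and 2.97) and Cdc20 (5.14, 5.02, 5.36 and 5.32) lay below all 4 control arrays too, with changes of -0.76, -0.76 and -0.65 and limma adjusted p-values of 0.094, 0.156 and 0.088. The proliferation markers overlapped with control: Mki67 had 4.21, 4.50, 5.11 and 4.93 in X-ray (-0.36, limma adjusted p 0.556), and Top2a had 0.17, 0.71, 1.05 and 0.80 (-0.47, limma adjusted p 0.369).

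The single call was not stable. It was lost in the fit with slide as a replicate block (limma adjusted p 0.0601 for Aurkb), in which 0 of the 40 passed, and on leaving out any 1 control array, ALA replicate 1 or 4, or X-ray replicate 1, 2 or 4. Without X-ray replicate 3, the X-ray array with the highest mitosis gene levels, 4 genes passed, and without ALA plus X-ray replicate 1 or 3, which enter only through the shared spread, 5 or 3 passed. Weighting arrays by their fit gave 18 calls, and the share of all genes called in these refits is not given here. Macrophage markers were lower in X-ray than in control for 14 of 15 genes, with 0 past the test and 2 at an unadjusted limma p under 0.05, and ran over -1.46 to 1.70 in X-ray and 0.21 to 1.43 in control arrays. Endothelial markers were below 0 for 7 of 7 genes, 1 fell in limma (adjusted p 0.0265) and 3 did not overlap; they ran over -1.51 to -0.64 in X-ray and -0.51 to -0.29 in control arrays. The part of the endothelial cells in the result was not tested. Within slides the median difference of the mitosis genes was -0.66, -0.74, -0.02 and -0.35 on slides 1 to 4, with replicate 3, on slide 3, nearest to control.

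**Figure D4:**
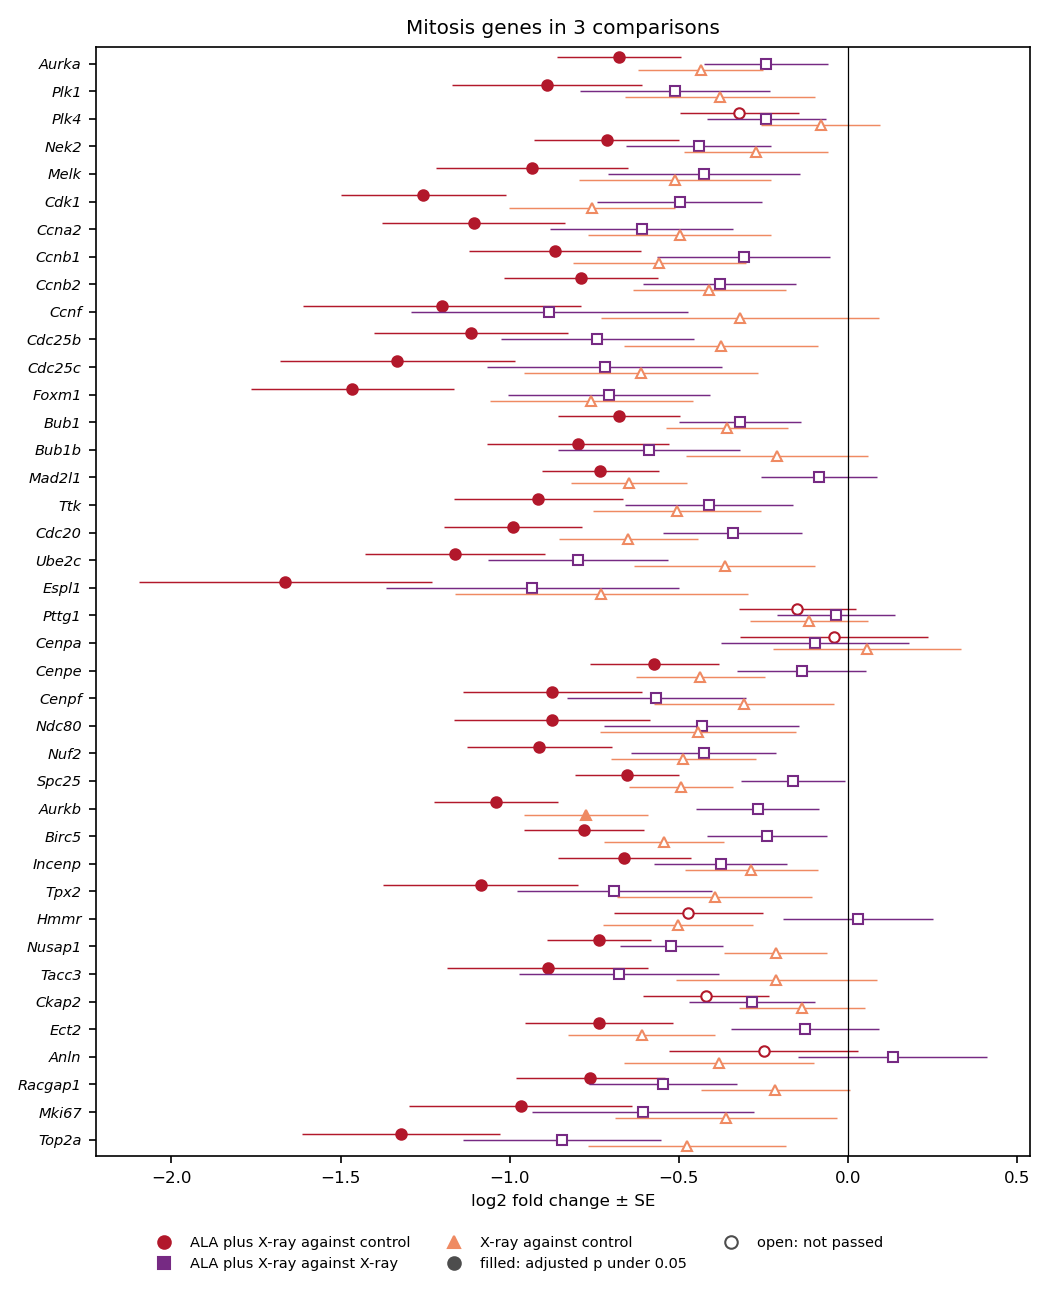
Log2 fold change ± SE (x axis) of each of the 40 mitosis genes in 3 comparisons, ordered by role. Filled symbols passed an adjusted p of 0.05 in limma. There are 34 filled circles (ALA plus X-ray against control), 1 filled triangle (Aurkb, X-ray against control) and 0 filled squares (ALA plus X-ray against X-ray).

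The study's title concerns what ALA does to radiotherapy, which ALA plus X-ray against X-ray addresses. None of the 40 mitosis genes passed there (0 of 40 in limma), where 2.07% of all genes changed and 0.766% fell. Their median was -0.43, against -0.08 over all genes, 38 were below 0, against 59.6% of all genes, and 12 were lower at an unadjusted limma p under 0.05, against 13.0% of all genes. No gene had values without overlap, 0 of 40, against 3.68% of all genes for lower values. The smallest p was that of Nusap1, which had 1.53, 1.05, 1.32 and 1.38 in ALA plus X-ray and 1.51, 1.64, 2.20 and 2.01 in X-ray (-0.52, SE 0.15, limma adjusted p 0.0764). Ube2c followed, with 3.27, 2.25, 1.65 and 2.41 in ALA plus X-ray and 2.83, 2.98, 3.43 and 3.53 in X-ray (-0.80, SE 0.27, limma adjusted p 0.107). Top2a was next at -0.85 (SE 0.29, limma adjusted p 0.116). In all of these, replicate 1 of ALA plus X-ray lay within the X-ray range. Genes nearest 0 on the probes read were Hmmr (0.03, SE 0.22), Pttg1 (-0.03, SE 0.17), Mad2l1 (-0.08, SE 0.17), Cenpa (-0.10, SE 0.28), Ect2 (-0.13, SE 0.22) and Anln (0.13, SE 0.28). Second probes were further from 0 for Hmmr (-0.48, adjusted p 0.197) and Anln (-0.72, adjusted p 0.145) in the limma fit of all probes. Those of Mad2l1 and Ect2 were at -0.24 and -0.001.

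This comparison turned on 1 array. Without replicate 1 of ALA plus X-ray, 22 of the 40 genes passed in limma, and without replicate 1 of X-ray 2 passed. The share of all genes that passed in these fits is not given here, so the counts have no background beside them. Within slides the median difference of the 40 genes was 0.54 on slide 1, where 0 genes were below 0, and -0.43, -1.23 and -0.49 on slides 2, 3 and 4, where 40, 39 and 36 genes were below 0. Macrophage markers were higher in ALA plus X-ray than in X-ray for 15 of 15 genes and 8 rose in limma, and with that level as a covariate the median of the mitosis genes was 0.03. Fibroblast markers were above 0 for 10 of 10 genes (median 2.12) and skeletal muscle markers for 14 of 15. Erythroid markers were below 0 for 4 of 4, and in each of these lists 0 passed the test. The part of the erythroid cells in the result was not tested. The 34 calls in ALA plus X-ray and the 1 call in X-ray, both against control, are not shown to differ by this direct comparison of the irradiated groups.

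**Figure D5:**
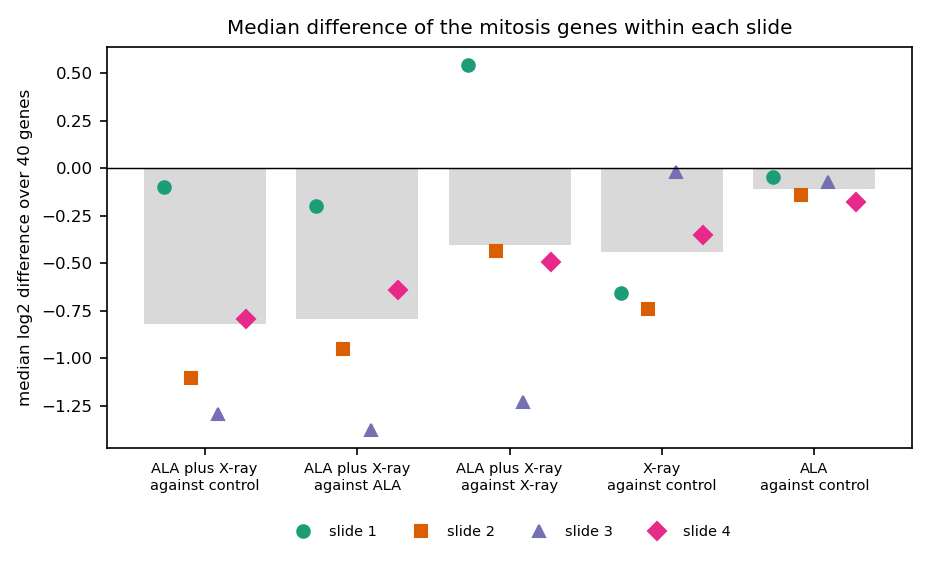
Median log2 difference of the 40 mitosis genes (y axis) between the 2 arrays of the named groups on each slide, with grey bars at the mean of the 4 slides. On slide 1 the median is 0.54 when set against X-ray and -0.10 when set against control, both for ALA plus X-ray, while slides 2 to 4 lie between -1.29 and -0.79 against control.

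In ALA tumours against control no mitosis gene passed: 0 of 40 did in limma (0 lower at an unadjusted p under 0.05 as well, against 2.17% of all genes), where 0% of all genes passed. The median was -0.10, against 0.00 over all genes, and 29 genes were below 0, against 50.4% of all genes. Over the alternatives the median ran over -0.42, with the macrophage covariate, to -0.06. The 3 genes with the smallest p were Pttg1 (-0.30, SE 0.17, limma adjusted p 0.806), Hmmr (-0.38, SE 0.22, limma adjusted p 0.806) and Aurkb (-0.28, SE 0.18, limma adjusted p 0.818). Aurkb, with 1.89, 2.12, 2.09 and 1.83 on the ALA arrays, was the 1 gene whose ALA arrays all lay below the control arrays, against 2.51% of all genes. Cdk1 was at 3.51, 3.44, 3.17 and 3.51 in ALA and 3.60, 3.59, 3.34 and 3.72 in control, and Ccnb2 at 5.15, 5.22, 5.10 and 5.13 in ALA and 5.10, 5.22, 5.03 and 5.22 in control. The within-slide medians ran over -0.18 to -0.04. Macrophage markers were lower in ALA than in control for 15 of 15 genes, 12 at an unadjusted limma p under 0.05 and 0 past the test. Other lists differed too: 4 of 4 erythroid genes were above 0 (median 2.28), and 15 of 15 skeletal muscle and 7 of 7 endothelial genes were below 0. In each of these lists 0 passed the test.

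Against ALA, ALA plus X-ray tumours had 27 of 40 mitosis genes lower and 0 higher in limma, where 24.1% of all genes changed and 13.4% fell. The median was -0.76, against -0.13 over all genes, 39 were below 0, against 61.1%, and 17 genes did not overlap and were lower, against 11.5% of all genes. All 4 checkpoint genes fell, as did 5 of 7 cyclins and activators, 3 of 6 kinases, 7 of 9 kinetochore and passenger genes and 1 of 2 proliferation markers. Ttk had the smallest p, with -3.54, -3.90, -4.49 and -3.91 in ALA plus X-ray and -3.16, -3.15, -2.23 and -2.56 in ALA (-1.19, SE 0.25, limma adjusted p 0.0067), followed by Cdk1 (-1.10, SE 0.24, limma adjusted p 0.00855). Nusap1, Nuf2, Top2a, Foxm1 and Racgap1 fell by 0.68, 0.93, 1.25, 1.19 and 0.90. Plk4, which had not passed against control, fell by 0.55 (limma adjusted p 0.0364), with -0.98, -1.34, -0.83 and -1.05 in ALA plus X-ray and -0.59, -0.74, -0.06 and -0.62 in ALA. Mki67 was at -0.93 (limma adjusted p 0.0524), Ccnb1 at -0.64 (0.0782), Plk1 at -0.68 (0.0875) and Pttg1 at 0.15 (0.545). The comparison shares its ALA plus X-ray arrays with the 2 above.

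Within slides the median was -0.20, -0.95, -1.38 and -0.64 on slides 1 to 4. The count moved with single arrays: it was 13, 15, 17 or 14 without ALA replicate 1, 2, 3 or 4, and 13, 15 or 16 without ALA plus X-ray replicate 2, 3 or 4. Macrophage markers rose for 14 of 15 genes and fibroblast markers for 7 of 10 in ALA plus X-ray against ALA. With the macrophage, fibroblast or skeletal muscle level as a covariate 0 mitosis genes passed, the macrophage level leaving a median of -0.13. For these fits and for those without single arrays, the share of all genes that passed is not given here. The macrophage level ran over 1.19 to 3.23 in ALA plus X-ray and -1.97 to -0.1 in ALA arrays. These ranges do not overlap, so that fit cannot tell the macrophage level from the treatment. Of the 4 erythroid genes, 3 fell and all 4 were lower without overlap (median -3.34), and 3 of 7 T and NK cell genes rose; the part of these 2 lists in the result was not tested. On second probes in the limma fit of all probes, Bub1 (-0.48, adjusted p 0.0621) and Cenpf (-0.64, adjusted p 0.225) did not pass. Those of Anln (-1.22, adjusted p 0.00848) and Mki67 (-1.52, adjusted p 0.0148) did. Ccnb1 and Cenpe had 3 probes each, and the probes read for them did not pass. Their other probes were split in that fit. Ccnb1 passed at -0.63 (adjusted p 0.0242) but not at -0.48 (adjusted p 0.1275). Cenpe passed at -1.17 (adjusted p 0.0259) but not at -0.69 (adjusted p 0.067).

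Whether the X-ray difference was larger in ALA-treated than in other tumours was tested by the interaction, and none of 40 genes passed (0 in limma), where 1.23% of all genes did. At an unadjusted limma p under 0.05, 2 were lower, against 10.2% of all genes. The median interaction was -0.41, against -0.10 over all genes, and 34 genes were below 0, against 59.1% of all genes. Racgap1, a centralspindlin subunit, had the smallest p (-0.68, SE 0.31, limma adjusted p 0.253), followed by Nusap1 (-0.47, SE 0.22, limma adjusted p 0.257) and Ttk (-0.68, SE 0.35, limma adjusted p 0.305). Within slides the median was 0.56 on slide 1 and -0.29, -1.36 and -0.34 on slides 2 to 4. Leaving out X-ray replicate 1 gave 1 call, and the share of all genes called in that refit is not given here. All 15 macrophage genes had an interaction above 0 and 11 passed, and 9 of 10 fibroblast genes were above 0 with 0 past the test. With the macrophage or fibroblast level as a covariate the median interaction of the mitosis genes was 0.42 or 0.07, above 0 in both.

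Cdkn1a, whose product p21 inhibits cyclin-dependent kinases, was read beside these genes. It had levels of 3.62, 3.50, 3.79 and 3.02 in ALA plus X-ray, 4.13, 3.50, 3.13 and 3.40 in X-ray, 1.34, 1.54, 1.70 and 1.41 in ALA and 1.85, 2.40, 1.92 and 1.94 in control. All irradiated tumours lay above all others, and the limma change against control was 1.45 (SE 0.21, adjusted p 0.00193) in ALA plus X-ray and 1.52 (SE 0.21, adjusted p 0.0143) in X-ray, with -0.06 (SE 0.21, adjusted p 0.883) between these. Replicate 1 of ALA plus X-ray, which had mitosis gene levels near control, had a Cdkn1a level of 3.62. How the Cdkn1a level relates to the mitosis genes was not tested.

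Another 104 mitosis genes that are not among the 41 were read by count, all of them past the filter. Against control, 61 fell and 2 rose in ALA plus X-ray in limma, with a median of -0.62, where 15.1% of all genes fell, and 3 fell and 0 rose in X-ray, with a median of -0.34, where 1.38% of all genes fell. ALA against control gave 0, and so did ALA plus X-ray against X-ray. The 8 of smallest p in ALA plus X-ray against control were the condensin subunits Ncapd3 (-1.02) and Ncapg2 (-1.12), the Greatwall kinase gene Mastl (-1.17), the augmin subunit Haus4 (-0.77) and the centromere genes Cenpo (-0.74), Cenpk (-1.04), Cenpm (-1.74) and Cenpu (-1.14). In X-ray against control the 3 were Cenpo (-0.63, limma adjusted p 0.0299), Haus4 (-0.68, limma adjusted p 0.0349) and Cenpq (-0.75, limma adjusted p 0.048). The 2 that rose in ALA plus X-ray were Plk2 (1.18, SE 0.33, limma adjusted p 0.0202) and Plk3 (0.51, SE 0.14, limma adjusted p 0.0192), stress-responsive relatives of Plk1, and both also rose against ALA (1.37 and 0.42). Against ALA, 48 of the 104 fell, where 13.4% of all genes did, among them the cohesin subunit Smc3 (-0.72), Ncaph (-1.34), Cdc25a (-1.16) and Cdc27 (-0.57).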

How the data were processed

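RNA of 16 tumours was hybridised to 1-colour Agilent mouse arrays. Per the file headers, the deposited scanner files hold the processed signal as intensity on a linear scale, background-subtracted and detrended by Agilent Feature Extraction 10.7.3.1, with quality flags as other values; the submitters' processing notes name version 9.5.3.1. The authors' deposited value table, intensity equalised between arrays, was used as an alternative. Here, log2 processed signal was scaled by each array's 75th percentile, leaving out 1639 control spots and outlier spots, and the probes of each name were reduced to the brightest after keeping those well above background on at least 4 of 16 arrays. Of 41174 probes, 26876 were named by accession through RefSeq (GRCm38.p6), 2894 through their symbol and 351 through a former symbol, while 11053 were left as named in the files; probe coordinates come from the annotation on the array (mm9). The number of arrays limits the precision.

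The 4 group means were fitted with limma 3.58.1 in R 4.3.3 (12 residual and 2.35 prior degrees of freedom; version 1.17.8 of data.table), with 6 comparisons and Benjamini-Hochberg adjustment within each at 0.05; figures used matplotlib in Python. The fit was tested on simulated data. Every member past the threshold could be named, with the 3 of smallest p where fewer than 3 passed; the genes given on every array were a listed set of key regulators, and Espl1, Pttg1, Plk4, Hmmr, Ckap2, Nusap1 and Ube2c were added after their values were seen. The members, lists and rules were chosen with earlier results of these data known, so no test of the list as a whole was made. Replicate number equals slide on all 16 arrays, so slide was tried as a replicate block: same-numbered arrays' deviations from their group means correlated at -0.46 to 0.54, so the numbers do not pair all samples. Alternatives were a normexp background (offset 50), quantile and median scaling, a 75th percentile over spots above background on all arrays, the authors' table, dropping the filter or asking it of all 16 arrays, each probe tested by itself, trend and robust moderation, array weights, only the arrays compared, marker levels as covariates (macrophage and fibroblast chosen after seeing the data) and each array left out.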

Additional observations from a re-analysis of the deposited data

Results flagged for a closer look

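Within groups of 4, the array most distant from the others was set against Dixon's critical value for 19 mitosis genes and for their median, in 80 sets, of which chance alone would mark about 1 in 20; 5 passed. Cdk1 on X-ray replicate 3 was at 3.08, above the other X-ray arrays, the nearest of which was at 2.73. Ttk on X-ray replicate 2 was at -3.11, above its nearest at -3.66, on a probe close to background in that group. Birc5 on ALA replicate 2 was at 6.36, above its nearest at 5.99, and Mad2l1 on ALA replicate 3 was at 2.57, above its nearest at 2.35. Bub1 on control replicate 1 was at 2.17, below its nearest at 2.48. No set of the ALA plus X-ray arrays passed, although these arrays had the widest spread.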

How the results depend on the processing

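The direction of the median change of the 40 mitosis genes was kept in ALA plus X-ray against control (-1.09 to -0.58), X-ray against control (-0.60 to -0.30) and ALA plus X-ray against ALA (-0.998 to -0.13) under every alternative run, while for ALA plus X-ray set against X-ray it ran over -0.62 to 0.03, above 0 with the macrophage covariate. The counts of genes past the threshold moved more, and the share of all genes past it in each refit is not given here. For ALA plus X-ray against control (34) they were 20 with median scaling, 20 with no filter, 12 with only the arrays compared, 0 with the macrophage and 1 with the fibroblast level as a covariate, and 16 to 35 on leaving out single arrays. For ALA plus X-ray against ALA (27) they were 8 with median scaling, 14 with no filter, 6 with only the arrays compared, 0 with the macrophage, fibroblast or skeletal muscle covariate, and 13 to 35 on leaving out single arrays. For X-ray against control (1) they were 0 with median scaling, no filter or the replicate block, 2 with the filter on all 16 arrays or with trend and robust moderation, 4 with the muscle or macrophage and 5 with the fibroblast covariate, 18 with array weights, and 0 to 5 on leaving out single arrays. For ALA plus X-ray against X-ray (0) array weights gave 9 and leaving out single arrays 0 to 22; for the interaction (0) array weights gave 1 and leaving out single arrays 0 to 1; ALA against control gave 0 throughout, 0 to 0 on leaving out single arrays. The replicate block gave 27 for ALA plus X-ray against control and 24 against ALA. With the macrophage covariate the sign turned for Cenpf in ALA plus X-ray against ALA (0.13) and for Racgap1 (0.42), Nusap1 (0.24) and Ttk (0.0224) in the interaction, whose median was 0.42 with the macrophage, 0.07 with the fibroblast and -0.09 with the muscle covariate. The causes were not tested. Over all genes the median in ALA plus X-ray against control was -0.14 with median scaling and -0.26 with no filter. Among the 34 calls in ALA plus X-ray against control, Aurkb was lost in 1 of 31 settings, the macrophage covariate (adjusted p 0.0567 in limma), but Ccnf and Mki67 in 23, Tacc3 in 21, Bub1b and Cenpe in 18, Ndc80 in 15 and Plk1 in 14. Signal over background limits Ttk, which was dim on 2 of 4 X-ray arrays.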
